A study of Homo sapiens with 12 samples.

Results

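Histone deacetylases and lysine demethylases take acetyl and methyl groups off histones and other proteins, and their transcripts were compared in U937 cells, an established human acute myeloid leukemia line, after decitabine (DAC), all-trans retinoic acid (ATRA) or both. Members were the genes whose symbol is HDAC, SIRT or KDM followed by a family number, and 37 of the 44786 gene symbols in the deposited table met that rule, with 501 of its 197782 transcripts. They were 11 HDAC genes, 7 sirtuins and 19 lysine demethylases, and each was followed through 1 transcript, that whose values averaged highest over the 12 libraries. The study asked how DAC and ATRA act on this line together and apart, and sequenced total RNA without ribosomal RNA as strand-specific, paired-end libraries. Untreated cells (3 libraries, numbered 1 to 3) are labelled 96 h. Cells given 200 nM DAC (libraries 4 to 6), 1 µM ATRA (libraries 7 to 9) or 200 nM DAC with 1 µM ATRA (libraries 10 to 12) are labelled 72 h, so treatment and labelled time cannot be told apart. The labels have every group in medium with 20% FCS and 5 ng/ml GM-CSF and the treated cells exposed for 3 days with DAC renewed daily, whereas the study's methods give less serum, name no GM-CSF, add ATRA with the last DAC dose and harvest at 72 h. The series describes its triplicates as technical. The p-values below thus weigh a difference against the spread between libraries within groups, which may be technical alone.

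Acetylated histone tails mark open chromatin, and the HDACs of classes I, IIa and IIb use zinc to remove the acetyl group while the sirtuins consume NAD+. Lysine demethylases of the KDM1 family oxidise the methyl group with FAD, and the others carry a JmjC domain that needs iron and 2-oxoglutarate. DAC inhibits DNA methyltransferases, and ATRA is the ligand of retinoic acid receptors, which without ligand recruit corepressor complexes that contain HDACs.

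Each library held between 8042435 and 10683593 reads assigned to transcripts, with a median of 9874622. Values are normalized reads, that is reads assigned to a transcript divided by 1 size factor for the library, so that 3 reads stood for 2.50 to 3.71 normalized reads. Mitochondrial transcripts took 40.6%, 42.1% and 42.5% of the reads in untreated cells, 40.4%, 38.8% and 37% with DAC, 40.8%, 38.9% and 41.1% with ATRA and 38.3%, 38.1% and 36.3% with both agents. The share was thus lower in every library with DAC, alone or with ATRA, than in every untreated one, and its part in the results below was not tested.

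Marker lists were used to compare the libraries with the labelled cell type. The 11 monocytic or myeloid markers all had reads, summed to 66005, 68326 and 61064 normalized reads in untreated cells and to 37207, 38590 and 35857 with DAC + ATRA, and MPO was the most abundant. DAC gave 56357, 38910 and 50748 and ATRA 56460, 59190 and 41298. In these sums every treated library, with either agent or both, thus lay below all 3 untreated ones. With DAC + ATRA the lower sum was that of MPO, which fell from a mean of 52120 in untreated cells to 14973. Of the 9 myeloid markers tested in limma, MPO alone fell with DAC + ATRA (11.1%, beside 16.1% of all transcripts) and 4 rose (44.4%, beside 25.5%), ITGAM from 202 to 2725, LYZ from 164 to 1097, CEBPA from 7791 to 12930 and CSF1R from 0.611 to 17.1. CSF1R averaged 0.611 in untreated cells, so it met the read level needed for testing through treated libraries alone. Any rise of CSF1R against untreated cells follows in part from that choice. The 44.4%, which counts it, is thus raised in part by the filter. The median log2 fold change of the 9 was 0.26. With DAC 4 rose (44.4%, beside 22.2%) and 1 fell (11.1%, beside 11.3%). With ATRA 1 rose and 1 fell (11.1% each, beside 5.11% and 1.87%), where DESeq2 and edgeR called 3 in either direction. The 6 lymphoid markers, of which 2 were tested and CD79A alone passed, summed to 144, 140.2 and 132 normalized reads in untreated cells, 539, 531 and 522 with DAC, 354, 374 and 228 with ATRA and 1318, 1340 and 1395 with both agents, nearly all of it CD79A with means of 131 in untreated cells and 1336 with both agents. The 5 markers listed as epithelial or stromal summed to 149, 148 and 173 in untreated cells, 2613, 2622 and 2608 with DAC, 345, 339 and 299.6 with ATRA and 2969, 3340 and 3087 with both agents. Most of this was PECAM1, with means of 138 in untreated cells, 2373 with DAC, 281 with ATRA and 2980 with both agents. EPCAM, KRT8 and KRT18 had at most 9.96, 15.4 and 1.24 in any library. The sum thus mainly follows PECAM1 and is no measure of epithelial or stromal cells. This sum and the lymphoid one were higher in every treated library, ATRA alone included, than in every untreated one. Their part in the members' values was not tested. In a bulk sample fewer cells with a transcript and less of it in each cell cannot be told apart.

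Genes chosen to check the treatments were DHRS3 and CYP26A1, both enzymes of retinoid metabolism, with CD38, TGM2, RARB and HIC1. DHRS3 gave 392, 370.5 and 393 in untreated cells, 517, 375 and 394 with DAC, 4809, 5251 and 3931 with ATRA and 4987, 5800.2 and 5465 with both agents (normalized reads). Every ATRA-containing library lay above every other one for DHRS3, and its log2 fold change with DAC + ATRA was 3.81 ± 0.121 (SE, limma adjusted p = 7.55e-19). CYP26A1 gave 0, 0 and 0.923 in untreated cells, 0, 1.95 and 0 with DAC, 6.34, 4.55 and 0.832 with ATRA and 516, 604 and 437 with both agents (normalized reads). Its untreated and DAC libraries held at most 2 reads, so no fold is given, and its difference between DAC + ATRA and untreated cells passed the test (limma adjusted p = 1.36e-13). Of the 5 check genes tested, 4 rose with ATRA in limma (80%, beside 5.11% of all transcripts). With DAC + ATRA all 5 rose, and with DAC 2 rose and 1 fell. CYP26A1 and TGM2 reached 10 normalized reads, the level needed for testing, only with DAC + ATRA. Their passing there follows in part from that choice and is not separate support. RARB did not reach that level in enough libraries to be tested. DESeq2 and edgeR called 3 with ATRA.

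A transcript was tested if at least 3 libraries had at least 10 normalized reads, which 19373 transcripts and 31 of the 37 members met (10 HDAC genes, 6 sirtuins and 15 demethylases). No tested member passed through 1 group alone. The 6 others were KDM5D, KDM4E without reads, SIRT4 with 1 read over the 12 libraries, KDM4D with 6, HDAC11 with 9 and KDM8 with 70. No difference was tested in them. In release 44 of the GENCODE annotation 15 of the 31 tested transcripts were protein coding, 13 were retained introns and 3 of another type. For 9 of them under 10% of the bases lay outside other transcripts. A value thus describes the transcript measured and not the whole output of its gene. Of the members that passed a test, HDAC1 (ENST00000476391), HDAC7, SIRT2 (ENST00000479290), SIRT7 (ENST00000572976), KDM1A (ENST00000602503) and KDM2B were retained introns. KDM4C was a target of nonsense-mediated decay and KDM4B was of type TEC. For these members a change is not that of a protein-coding transcript. Per kilobase of transcript KDM4A had the highest level of the 31 in each of the 4 groups, with a mean of 524 normalized reads per kb in untreated cells, where HDAC1 with 97.4, KDM1B with 97.2 and HDAC5 with 86.6 followed. The order of the others differed between groups. The libraries were strand-specific, but whether reads were counted by strand is not given in the sources used here, so a value over bases shared with a gene of the opposite strand is uncertain in origin.

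Differences are log2 fold changes of normalized reads + 1, which understates differences of transcripts with few reads, and a difference passed the test at a Benjamini-Hochberg adjusted p under 0.01 over all 19373 transcripts (limma). With DAC 7 of the 31 members rose (22.6%) beside 22.2% of all transcripts tested, and 2 fell (6.45%) beside 11.3%. With ATRA 2 rose (6.45%) beside 5.11% and 2 fell (6.45%) beside 1.87%, a share that was 1.11% without untreated 2. With DAC + ATRA 12 rose (38.7%) beside 25.5% and 3 fell (9.68%) beside 16.1%. In either direction 33.5% of all transcripts passed with DAC, 6.97% with ATRA and 41.6% with both agents. The median log2 fold change of the members against untreated cells was 0.36 with DAC, 0.16 with ATRA and 0.41 with both agents, beside 0.05, 0.00 and 0.05 over all transcripts tested. Over protein-coding transcripts alone, the type of 15 of the 31, the medians were 0.22, 0.00 and 0.20, and 30.7% were higher with DAC and 32.6% with DAC + ATRA in limma. Of the 19 members with a protein-coding transcript tested there, 6 were higher with DAC (31.6%) and 7 with DAC + ATRA (36.8%), the latter closer to its background than 38.7% is to 25.5%. These 3 comparisons share the untreated libraries. By family, 2 of 10 HDAC genes (20%), 2 of 6 sirtuins (33.3%) and 3 of 15 demethylases (20%) rose with DAC, beside 22.2% of all transcripts. With DAC + ATRA 2 (20%), 3 (50%) and 7 (46.7%) of them rose, beside 25.5%. The fallen members were HDAC2 and KDM1A with DAC, KDM1B and KDM7A with ATRA, and HDAC2, HDAC7 and KDM1A with DAC + ATRA. The count that fell with DAC was 1 without untreated 1, untreated 2 or DAC 6, and the count that rose with ATRA was 1 without untreated 1, untreated 2, untreated 3, DAC 5, DAC 6, ATRA 7, ATRA 8, DAC + ATRA 11 or DAC + ATRA 12.

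**Figure D1:**
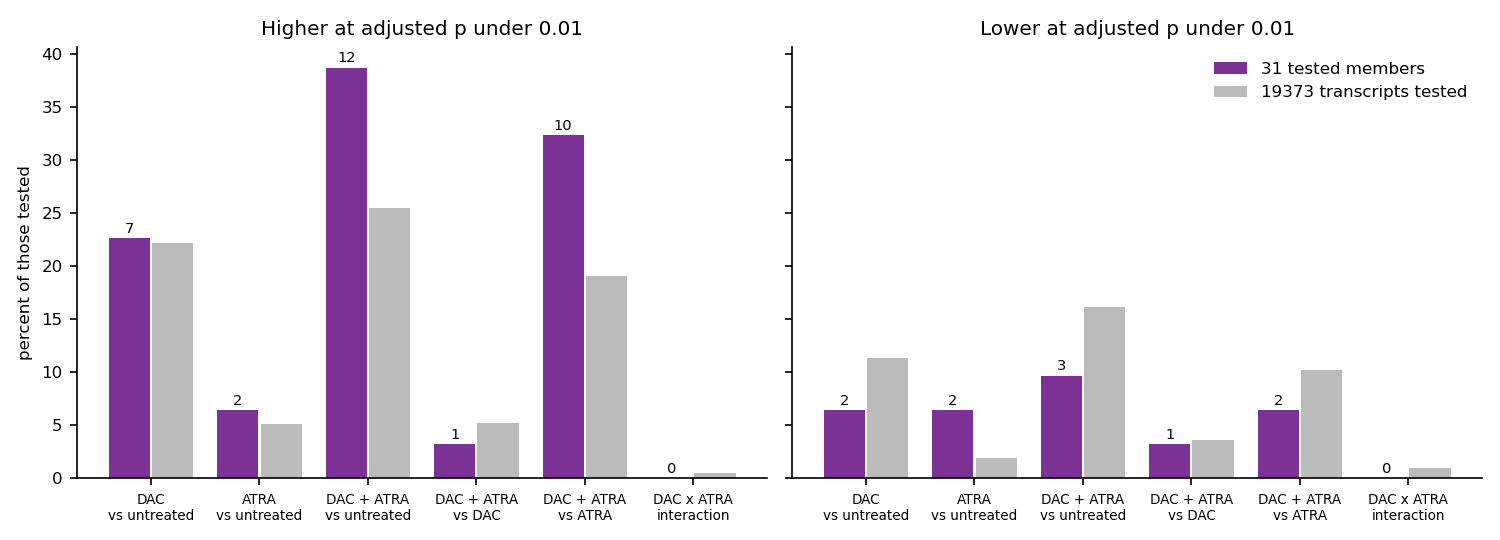
Percent of the 31 tested members (purple, with their number above the bar) and of all 19373 transcripts tested (grey) that were higher (left) or lower (right) at a limma adjusted p under 0.01, for each of the 6 comparisons. The member bar for higher values with DAC, 22.6%, is about as tall as the grey bar, 22.2%, and with DAC + ATRA the bars are 38.7% and 25.5%.

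**Figure D2:**
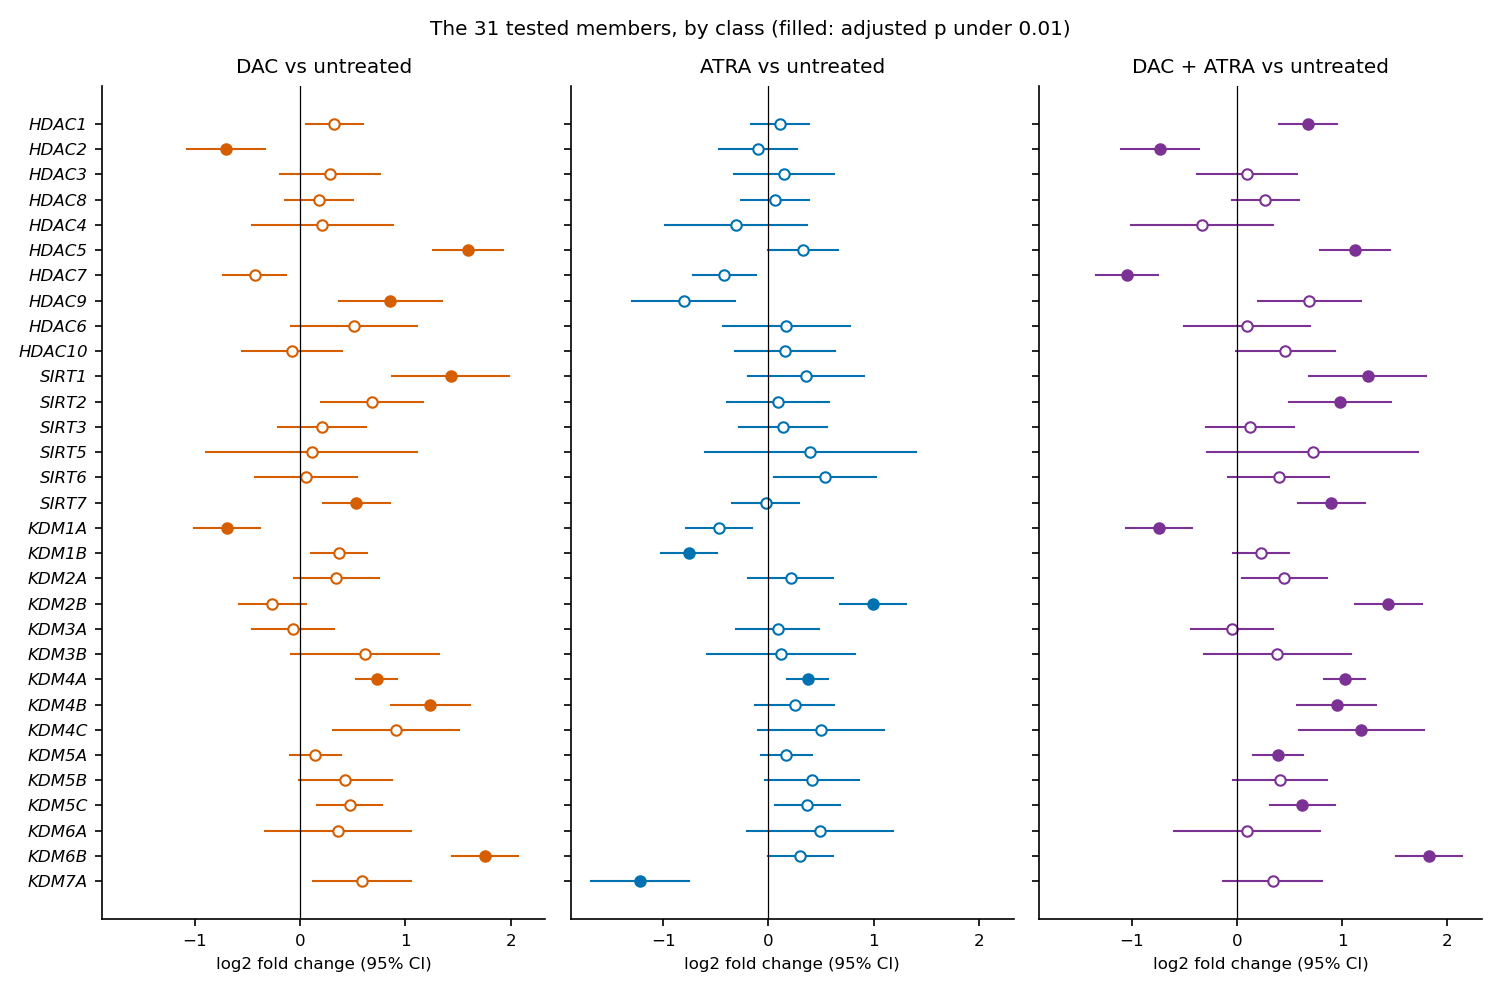
Log2 fold change against untreated cells with its 95% confidence interval for the 31 tested members, in order of class, with DAC (left), ATRA (middle) and DAC + ATRA (right), where filled points passed the test. KDM6B lies farthest to the right with DAC at 1.76 and with DAC + ATRA at 1.83, and KDM7A farthest to the left with ATRA at -1.22.

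The 250 bases before an annotated start site were read for the members from RefSeq (GRCh38.p14), which gave 53 such windows for 34 of the 37 members, while HDAC5, SIRT7 and KDM4E were not in the table. For 19 members, 15 of them tested, a window ended within 50 bp of the first base of the transcript measured. DNA methyltransferases act on CG dinucleotides and retinoic acid receptors bind repeats of AGGTCA, so both were counted, the latter on either strand (as AGGTCA or TGACCT). The 15 tested members had 1 to 50 CG dinucleotides with a median of 23, beside a median of 11 over all 35116 windows of the table. AGGTCA was present in 12.1% of all windows and in that of 1 of the 19 members, HDAC9. Shown are the windows of KDM6B, HDAC9, SIRT1 and KDM7A, chosen after their values were seen because they span the range of CG counts among members that changed. They stand 5′ to 3′ on the strand of the gene with CG in capitals: KDM6B chr17:7839667-7839916 (plus strand) with 1 CG, HDAC9 chr7:18495499-18495748 (plus strand) with 4, SIRT1 chr10:67884406-67884655 (plus strand) with 32 and KDM7A chr7:140176984-140177233 (minus strand) with 50. As many CG or more were found in 93.9%, 70.7%, 9.52% and 0.148% of all windows, respectively. Other start sites had windows with 21 CG for KDM6B and 32 for HDAC9, and 1.7% and 0% of the bases of their measured transcripts lie outside other transcripts, so the start site in use was not determined. A match in these letters describes the sequence alone, and neither methylation nor binding was measured.
KDM6B: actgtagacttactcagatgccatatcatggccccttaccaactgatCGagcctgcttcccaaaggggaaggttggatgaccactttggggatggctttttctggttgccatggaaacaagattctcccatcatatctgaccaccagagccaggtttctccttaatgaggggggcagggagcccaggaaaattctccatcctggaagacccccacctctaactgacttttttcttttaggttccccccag
HDAC9: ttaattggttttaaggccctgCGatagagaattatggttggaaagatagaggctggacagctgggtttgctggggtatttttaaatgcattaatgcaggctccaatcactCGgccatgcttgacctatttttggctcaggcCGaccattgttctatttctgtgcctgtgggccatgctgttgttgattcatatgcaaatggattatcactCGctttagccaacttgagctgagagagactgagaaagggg
SIRT1: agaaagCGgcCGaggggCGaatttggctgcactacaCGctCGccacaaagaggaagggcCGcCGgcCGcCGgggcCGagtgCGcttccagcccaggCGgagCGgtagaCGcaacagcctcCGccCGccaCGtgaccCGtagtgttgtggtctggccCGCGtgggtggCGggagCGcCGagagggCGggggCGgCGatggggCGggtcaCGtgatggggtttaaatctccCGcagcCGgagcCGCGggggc
KDM7A: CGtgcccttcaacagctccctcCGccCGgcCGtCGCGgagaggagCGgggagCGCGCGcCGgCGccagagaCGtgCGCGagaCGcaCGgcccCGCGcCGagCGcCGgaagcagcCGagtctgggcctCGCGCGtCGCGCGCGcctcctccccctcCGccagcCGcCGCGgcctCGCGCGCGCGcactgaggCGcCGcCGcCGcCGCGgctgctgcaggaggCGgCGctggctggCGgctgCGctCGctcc

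Among the class I enzymes, which are nuclear and work in corepressor complexes, HDAC1 gave, in normalized reads as for all members, 222, 234 and 248 in untreated cells, 270.2, 299 and 315 with DAC, 219.6, 234 and 317 with ATRA and 367, 381 and 376 with both agents. The 3 DAC + ATRA libraries were the highest of the 12, and the ATRA libraries overlapped the untreated ones. This retained-intron transcript of HDAC1 rose with DAC + ATRA (log2 fold change 0.67, limma adjusted p = 0.000142). It had 0.33 with DAC (adjusted p = 0.0483) and 0.11 with ATRA (adjusted p = 0.696), neither past the threshold. The highest protein-coding transcript of HDAC1 averaged 0.772 normalized reads. HDAC2, the close paralog of HDAC1, gave 167, 160.2 and 139 in untreated cells, 101, 95.5 and 87.6 with DAC, 186, 156 and 103 with ATRA and 89.5, 82.1 and 110 with both agents. Every library with DAC lay below every untreated one, while ATRA libraries spread from below to above them. HDAC2 fell by 0.71 on the log2 scale with DAC (limma adjusted p = 0.00226) and by 0.73 with DAC + ATRA (adjusted p = 0.00144). The ranges that follow cover 24 alternatives, among them DESeq2, edgeR, other scalings in limma and fits without one library, and leave out the fit to protein-coding transcripts alone, which can read another transcript. The adjusted p for DAC (limma, DESeq2 or edgeR) ran from 0.000273 to 0.0133 and the call was lost without untreated 1 (0.0133), untreated 2 (0.0119) or DAC 6 (0.0128), and for DAC + ATRA it ran from 0.000149 to 0.0123 and the call was lost without DAC + ATRA 11 (0.0123). HDAC3 and HDAC8 passed the test in none of the 6 comparisons.

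Class IIa enzymes shuttle between nucleus and cytoplasm and bind MEF2 transcription factors. HDAC5 (ENST00000591714, chr17:44093781-44111341 of hg38, minus strand) gave 54.2, 67.4 and 51.7 in untreated cells, 171, 182 and 173 with DAC, 80.3, 73.7 and 64.1 with ATRA and 130.2, 142 and 109 with both agents. All libraries with DAC lay above all without it, the DAC libraries above the DAC + ATRA ones. HDAC5 rose from 57.8 ± 8.40 (SD, n = 3) in untreated cells to 175 ± 5.98 with DAC and 127 ± 16.9 with DAC + ATRA, against 72.7 ± 8.13 with ATRA. With DAC the log2 fold change of HDAC5 was 1.59 ± 0.161 (SE, 95% CI 1.26 to 1.93, limma adjusted p = 7.89e-09), and with DAC + ATRA 1.12 ± 0.161 (SE, 95% CI 0.79 to 1.46, limma adjusted p = 1.83e-06). With ATRA it was 0.33 (limma adjusted p = 0.225), not past the threshold.

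HDAC7 (ENST00000459625, chr12:47782726-47793498 of hg38, minus strand) gave 184, 186 and 184 in untreated cells, 148, 135 and 126 with DAC, 140.4, 119 and 156 with ATRA and 95.8, 81.1 and 90.2 with both agents. The untreated libraries were the highest of the 12, the DAC + ATRA libraries the lowest, and the DAC and ATRA libraries overlapped between them. Means were 184 ± 1.10 (SD, n = 3) in untreated cells, 137 ± 10.9 with DAC, 138 ± 18.3 with ATRA and 89 ± 7.46 with both agents. With DAC + ATRA the log2 fold change of HDAC7 was -1.05 ± 0.144 (SE, 95% CI -1.34 to -0.75, limma adjusted p = 1.02e-06). DAC alone gave -0.43 (limma adjusted p = 0.0163) and ATRA alone -0.42 (adjusted p = 0.0617), neither past the threshold. The transcript shares 709 bases in all with 2 genes of the opposite strand, and for 1 of them, SLC48A1, the log2 fold changes were 0.25 with DAC, -0.41 with ATRA and -0.33 with both agents, none past the threshold. With DAC + ATRA against DAC, SLC48A1 fell by 0.58 (limma adjusted p = 0.00176). Against ATRA, SLC48A1 had 0.08, not past the threshold.

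HDAC9, whose window is shown above, gave 42.3, 41 and 40.6 in untreated cells, 73.5, 86.7 and 67.7 with DAC, 34.8, 16.4 and 21.6 with ATRA and 48.8, 75.8 and 81.6 with both agents. The untreated libraries lay within 2 normalized reads of each other, every DAC and DAC + ATRA library was above them and every ATRA library below. HDAC9 rose with DAC (log2 fold change 0.86, limma adjusted p = 0.00476), whereas DAC + ATRA at 0.69 (adjusted p = 0.0176) and ATRA at -0.81 (adjusted p = 0.0259) were not past the threshold. Over 24 alternatives the adjusted p for DAC (limma, DESeq2 or edgeR) ran from 0.000753 to 0.0279, and the call was lost without untreated 1 (0.0122), untreated 2 (0.0165), untreated 3 (0.0162), DAC 4 (0.0133) or DAC 5 (0.0279) and with reads scaled to library size (0.0141). Of the class IIa and IIb members, HDAC4, HDAC6 and HDAC10 passed the test in none of the 6 comparisons.

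**Figure D3:**
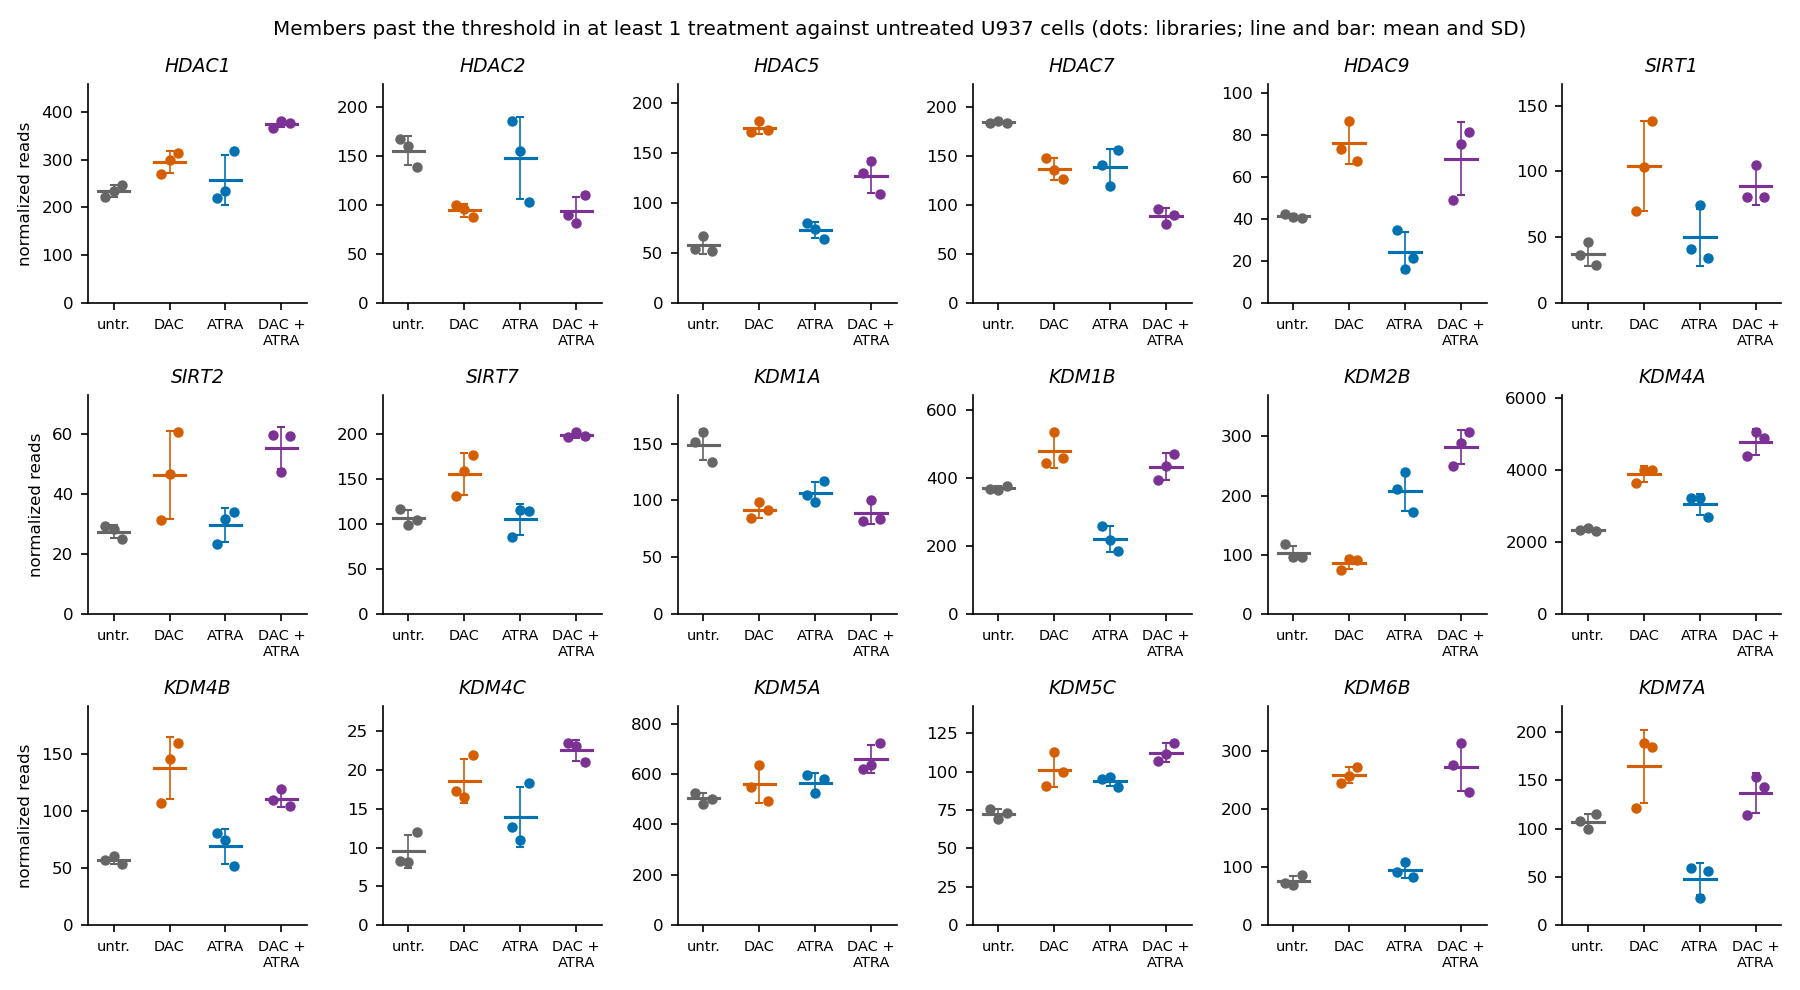
Normalized reads of the 18 members that passed the test in at least 1 treatment against untreated cells, with 1 dot for each library and the mean and SD of each group of 3 as a line and bar. The 3 DAC libraries of HDAC5, between 171 and 182, stand above its 3 untreated ones, between 51.7 and 67.4, and the 3 ATRA libraries of KDM7A, between 28.2 and 59.1, below its untreated ones.

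Sirtuins need NAD+, and SIRT1, the nuclear member best known as a deacetylase of histones and p53, is represented by ENST00000212015, chr10:67884656-67918390 of hg38, plus strand. SIRT1 gave 36.8, 46.4 and 28.6 in untreated cells, 70.3, 103 and 138 with DAC, 41.2, 74.6 and 34.1 with ATRA and 80.5, 105 and 80.3 with both agents. All libraries with DAC lay above all untreated ones, with the widest spread in the DAC group, and the ATRA libraries overlapped the untreated and the DAC ones. Means were 37.3 ± 8.91 (SD, n = 3) in untreated cells, 104 ± 34.1 with DAC, 49.98 ± 21.6 with ATRA and 88.7 ± 14.4 with both agents. With DAC the log2 fold change of SIRT1 was 1.43 ± 0.266 (SE, 95% CI 0.88 to 1.98, limma adjusted p = 0.000142), and with DAC + ATRA 1.24 ± 0.266 (SE, 95% CI 0.69 to 1.80, limma adjusted p = 0.000472). ATRA alone gave 0.36 (limma adjusted p = 0.476), not past the threshold.

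SIRT2, the mainly cytoplasmic deacetylase of tubulin, gave 29.4, 28.2 and 24.9 in untreated cells, 31.3, 46.8 and 60.8 with DAC, 23.2, 31.9 and 34.1 with ATRA and 59.7, 47.4 and 59.3 with both agents. Each DAC + ATRA library exceeded each untreated and each ATRA library, and the DAC libraries ranged from near the untreated level to the top. SIRT2 rose with DAC + ATRA (log2 fold change 0.98, limma adjusted p = 0.00111), and with DAC it had 0.68 (adjusted p = 0.0202), not past the threshold. This transcript held 39.65% of the normalized reads of the gene. Summed over its transcripts SIRT2 gave 64.3, 69.2 and 63.7 in untreated cells and 97.3, 123 and 140.4 with DAC, without overlap. SIRT7, the sirtuin of the nucleolus, gave 117, 98.3 and 104 in untreated cells, 131, 159 and 176 with DAC, 85.5, 116 and 115 with ATRA and 196, 202 and 198 with both agents. Its DAC + ATRA libraries were close together and the highest of the 12, the DAC libraries were between, and untreated and ATRA libraries overlapped. SIRT7 rose with DAC (log2 fold change 0.53, limma adjusted p = 0.00629) and with DAC + ATRA (0.90, adjusted p = 2.42e-05). Over 24 alternatives the adjusted p for DAC (limma, DESeq2 or edgeR) ran from 0.00263 to 0.0691, and the call was lost without untreated 2 (0.0349), untreated 3 (0.0231), DAC 5 (0.0219) or DAC 6 (0.0447). It was also lost with reads scaled to library size (0.0539), without the filter on low values (0.0214), with the transcripts of a gene summed (0.0135) and in edgeR without DAC 6 (0.0691). SIRT3, SIRT5 and SIRT6 passed the test in none of the 6 comparisons.

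The KDM1 family takes methyl groups off lysine 4 of histone H3, KDM1A as part of the CoREST complex. KDM1A gave 152, 160.2 and 134 in untreated cells, 84.3, 98.4 and 91.6 with DAC, 105, 98.3 and 117 with ATRA and 82.3, 100 and 84 with both agents. The untreated libraries were the highest of the 12, and the DAC and DAC + ATRA libraries overlapped. KDM1A fell by 0.69 on the log2 scale with DAC (limma adjusted p = 0.000551) and by 0.74 with DAC + ATRA (adjusted p = 0.000218), and had -0.47 with ATRA (adjusted p = 0.0424), not past the threshold. KDM1B, which works in oocytes to prepare imprinting and is otherwise found at transcribed genes, gave 369, 364 and 378 in untreated cells, 444, 537 and 460.1 with DAC, 261, 218 and 186 with ATRA and 395, 437 and 472 with both agents. The ATRA libraries lay below all others, and the DAC and DAC + ATRA libraries overlapped above the untreated ones. KDM1B fell by 0.75 on the log2 scale with ATRA (limma adjusted p = 0.000141), with 0.37 for DAC (adjusted p = 0.0223) and 0.23 for DAC + ATRA (adjusted p = 0.146), neither past the threshold.

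KDM2A and KDM2B bind unmethylated CG-rich DNA through a zinc finger, and KDM2B brings a Polycomb complex there. KDM2B was represented by ENST00000538503, chr12:121429509-121549639 of hg38, minus strand, a retained-intron transcript, with 118, 96.5 and 96 in untreated cells, 74.6, 92.5 and 90.6 with DAC, 211, 240.3 and 172 with ATRA and 250.4, 288 and 308 with both agents. All libraries with ATRA lay above all without it, the DAC + ATRA libraries highest and the DAC libraries lowest. Means were 103 ± 12.3 (SD, n = 3) in untreated cells, 85.9 ± 9.87 with DAC, 208 ± 34.1 with ATRA and 282 ± 29.1 with both agents. With ATRA the log2 fold change of KDM2B was 0.99 ± 0.154 (SE, 95% CI 0.68 to 1.31, limma adjusted p = 3.39e-05), and with DAC + ATRA 1.44 ± 0.154 (SE, 95% CI 1.12 to 1.76, limma adjusted p = 1.51e-08). DAC alone gave -0.26 (limma adjusted p = 0.165), not past the threshold. A protein-coding transcript of the gene, ENST00000543852, ran the other way, with 24.8, 19.1 and 25.9 in untreated cells, 10.8, 6.82 and 4.98 with DAC, 13.7, 17.3 and 13.3 with ATRA and 5.42, 10.5 and 4.94 with both agents. Its untreated libraries were the highest of the 12, and it fell by 1.55 on the log2 scale with DAC (limma adjusted p = 0.000719) and by 1.66 with DAC + ATRA (adjusted p = 0.000276). Taking the highest protein-coding transcript thus turned the direction of KDM2B, and it was the 1 member with transcripts that passed the test in opposite directions. The chosen transcript shares 439 bases with RNF34 on the opposite strand, whose log2 fold change was -0.07 with ATRA and 0.31 with both agents, neither past the threshold. KDM2A passed the test in none of the 6 comparisons.

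**Figure D4:**
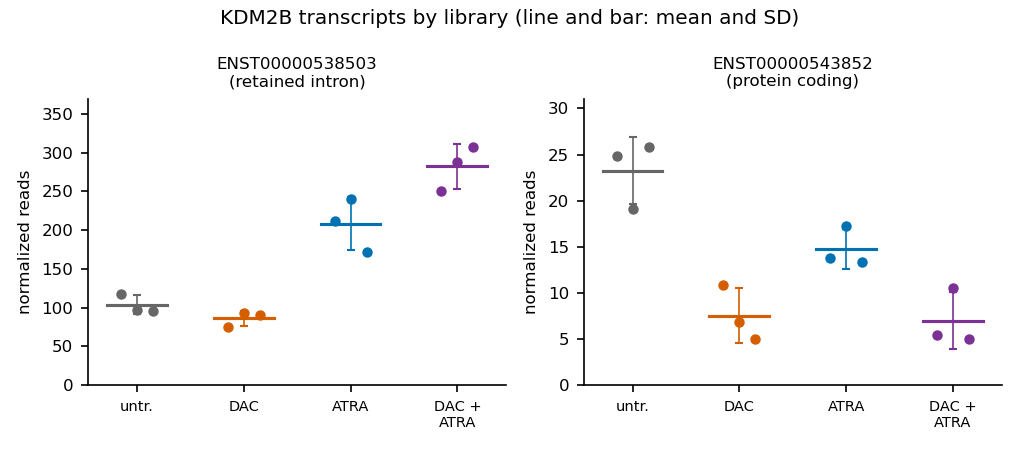
Normalized reads of 2 KDM2B transcripts in each library (dots), with the mean and SD of each group of 3, for the retained-intron transcript chosen by its mean (left) and a protein-coding one (right), on separate axes that start at 0. The left transcript reaches 250.4 to 308 with DAC + ATRA from 96 to 118 in untreated cells, and the right one 4.94 to 10.5 from 19.1 to 25.9.

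KDM4 enzymes demethylate lysines 9 and 36 of histone H3. KDM4A (ENST00000372396, chr1:43650149-43705518 of hg38, plus strand) gave 2336, 2399.5 and 2313 in untreated cells, 3655, 4017 and 4019 with DAC, 3223, 3222 and 2703 with ATRA and 4395, 5069 and 4909 with both agents. The 4 groups did not overlap, with untreated libraries lowest, then ATRA, then DAC and DAC + ATRA highest. Means were 2349.8 ± 44.6 (SD, n = 3) in untreated cells, 3897 ± 209.6 with DAC, 3049 ± 299.6 with ATRA and 4791 ± 352 with both agents. With DAC the log2 fold change of KDM4A was 0.73 ± 0.0940 (SE, 95% CI 0.53 to 0.92, limma adjusted p = 5.07e-07), and with DAC + ATRA 1.02 ± 0.0940 (SE, 95% CI 0.83 to 1.22, limma adjusted p = 1.03e-09). For ATRA it was 0.37 ± 0.0940 (SE, 95% CI 0.18 to 0.56, limma adjusted p = 0.00861). Over 24 alternatives the adjusted p for ATRA (limma, DESeq2 or edgeR) ran from 0.000206 to 0.0544, and the call was lost without untreated 1 (0.0347), untreated 2 (0.0308), untreated 3 (0.0436), DAC 5 (0.0106), DAC 6 (0.0107), ATRA 7 (0.0378), ATRA 8 (0.0544), DAC + ATRA 11 (0.0127) or DAC + ATRA 12 (0.0148) and with only the groups compared in the fit (0.0349). The transcript shares 473 bases with KDM4A-AS1 on the opposite strand, which fell by 1.44 on the log2 scale with DAC (limma adjusted p = 0.00155) and by 2.40 with DAC + ATRA (adjusted p = 2.58e-06).

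KDM4B (ENST00000624683, chr19:5074091-5079166 of hg38, plus strand) gave 57, 60.1 and 53.6 in untreated cells, 107, 145 and 159 with DAC, 80.3, 74.6 and 51.6 with ATRA and 109, 119 and 104 with both agents. All libraries with DAC lay above all without it. Means were 56.9 ± 3.26 (SD, n = 3) in untreated cells, 137 ± 27.1 with DAC, 68.8 ± 15.2 with ATRA and 111 ± 7.66 with both agents. With DAC the log2 fold change of KDM4B was 1.24 ± 0.182 (SE, 95% CI 0.86 to 1.61, limma adjusted p = 3.9e-06), and with DAC + ATRA 0.95 ± 0.182 (SE, 95% CI 0.57 to 1.32, limma adjusted p = 0.000102). ATRA alone gave 0.25 (limma adjusted p = 0.472), not past the threshold. KDM4C (ENST00000438023, chr9:6757641-7014337 of hg38, plus strand), a transcript annotated as a target of nonsense-mediated decay, gave 8.27, 8.19 and 12 in untreated cells, 17.3, 16.6 and 21.9 with DAC, 12.7, 10.9 and 18.3 with ATRA and 23.5, 23.2 and 21 with both agents. The DAC and DAC + ATRA libraries lay above the untreated ones, and the ATRA libraries overlapped the untreated and the DAC ones. KDM4C had 9.49 ± 2.18 (SD, n = 3) in untreated cells, 18.6 ± 2.90 with DAC, 14 ± 3.86 with ATRA and 22.6 ± 1.35 with both agents. With DAC + ATRA the log2 fold change of KDM4C was 1.19 ± 0.290 (SE, 95% CI 0.59 to 1.78, limma adjusted p = 0.00131). DAC alone gave 0.91 (limma adjusted p = 0.0124) and ATRA alone 0.50 (adjusted p = 0.328), neither past the threshold.

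KDM5 enzymes remove methyl groups from lysine 4 of histone H3. KDM5A gave 526, 482 and 501 in untreated cells, 548, 637 and 492 with DAC, 596, 525 and 579 with ATRA and 622, 635 and 724 with both agents. Only between DAC + ATRA and untreated libraries, of the 3 treatments against untreated cells, was there no overlap. KDM5A rose with DAC + ATRA (log2 fold change 0.39, limma adjusted p = 0.00661), with 0.14 for DAC (adjusted p = 0.322) and 0.17 for ATRA (adjusted p = 0.430), neither past the threshold. Over 24 alternatives the adjusted p for DAC + ATRA (limma, DESeq2 or edgeR) ran from 0.00101 to 0.0659. The call was lost without untreated 1 (0.0115), untreated 2 (0.0335), untreated 3 (0.0226), DAC + ATRA 11 (0.0140) or DAC + ATRA 12 (0.0486). It was also lost without the filter on low values (0.0146) and with reads scaled to library size (0.0659), where the log2 fold change was 0.24. KDM5C, an X-linked gene, gave 75.4, 69.2 and 73 in untreated cells, 90.8, 113 and 99.6 with DAC, 95, 96.5 and 89.9 with ATRA and 107, 112 and 119 with both agents. Every treated library lay above every untreated one. KDM5C rose with DAC + ATRA (log2 fold change 0.62, limma adjusted p = 0.00114), while 0.47 for DAC (adjusted p = 0.0129) and 0.37 for ATRA (adjusted p = 0.131) were not past the threshold. Its adjusted p (limma, DESeq2 or edgeR) ran from 0.000655 to 0.0117 over 24 alternatives, the highest with reads scaled to library size, where the call was lost. KDM5B passed the test in none of the 6 comparisons, nor did KDM3A and KDM3B, which act on lysine 9 of histone H3.

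KDM6 enzymes remove the methyl groups that Polycomb places on lysine 27 of histone H3, and KDM6B is the member known to be induced in stimulated macrophages. KDM6B (ENST00000254846, chr17:7839904-7854796 of hg38, plus strand) gave 72.6, 69.2 and 85.9 in untreated cells, 245, 257 and 273 with DAC, 90.8, 109 and 82.4 with ATRA and 275, 314 and 229.9 with both agents. All libraries with DAC lay above all without it, and the DAC and DAC + ATRA libraries overlapped. Means were 75.9 ± 8.82 (SD, n = 3) in untreated cells, 258 ± 13.8 with DAC, 94.1 ± 13.7 with ATRA and 273 ± 42 with both agents. With DAC the log2 fold change of KDM6B was 1.76 ± 0.152 (SE, 95% CI 1.45 to 2.07, limma adjusted p = 4.67e-10), and with DAC + ATRA 1.83 ± 0.152 (SE, 95% CI 1.51 to 2.14, limma adjusted p = 1.6e-10), the largest log2 fold changes among the 31 tested members in these comparisons. ATRA alone gave 0.30 (limma adjusted p = 0.238), not past the threshold. Its paralog KDM6A passed the test in none of the 6 comparisons.

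KDM7A, which demethylates lysines 9 and 27 of histone H3, is represented by ENST00000397560, chr7:140084746-140176983 of hg38, minus strand, whose start is shown above with its 50 CG. KDM7A gave 108, 99.2 and 115 in untreated cells, 121, 189 and 184 with DAC, 59.1, 28.2 and 55.8 with ATRA and 114, 154 and 143 with both agents. The ATRA libraries were the lowest of the 12, the DAC libraries lay above the untreated ones, and the DAC + ATRA libraries overlapped both. Means were 107 ± 8.11 (SD, n = 3) in untreated cells, 165 ± 37.9 with DAC, 47.7 ± 17 with ATRA and 137 ± 20.6 with both agents. With ATRA the log2 fold change of KDM7A was -1.22 ± 0.225 (SE, 95% CI -1.69 to -0.76, limma adjusted p = 0.000478). DAC alone gave 0.59 (limma adjusted p = 0.0374) and DAC + ATRA 0.34 (adjusted p = 0.213), neither past the threshold.

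Of the members that passed the test, 8 did so both with DAC and with DAC + ATRA (HDAC2, HDAC5, SIRT1, SIRT7, KDM1A, KDM4A, KDM4B and KDM6B) and 2 both with ATRA and with DAC + ATRA (KDM2B and KDM4A). A further 6 passed with DAC + ATRA but with neither agent alone, namely HDAC1, HDAC7, SIRT2, KDM4C, KDM5A and KDM5C. These were 25.8%, 6.45% and 19.4% of the 31, beside 27.9%, 6.19% and 11.7% of all transcripts tested in limma. These comparisons share the untreated libraries, and passing in 1 of them alone does not show a difference between treatments, for which the direct comparisons follow. DAC alone against ATRA alone was not tested.

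What ATRA added to DAC was read from DAC + ATRA against DAC. There 1 of 31 members was higher (3.23%), beside 5.18% of all transcripts tested, and 1 was lower (3.23%), beside 3.59%, and 8.77% of all transcripts passed in either direction. The higher one was KDM2B, whose 3 DAC + ATRA libraries all lay above its 3 DAC libraries (log2 fold change 1.71 ± 0.154, SE, limma adjusted p = 6.33e-09), and the lower one HDAC7 (-0.61 ± 0.144, adjusted p = 0.00370). Over 24 alternatives the adjusted p of HDAC7 (limma, DESeq2 or edgeR) ran from 0.00147 to 0.0278, and the call was lost without DAC 4 (0.0233), DAC 5 (0.0114), DAC + ATRA 11 (0.0278) or DAC + ATRA 12 (0.0137) and without the filter on low values (0.0193). SLC48A1, 1 of the genes on the strand opposite HDAC7, fell by 0.58 there as well (limma adjusted p = 0.00176), and the strand of the shared reads was not tested. With ATRA 9 left out 2 members were higher, beside 5.81% of all transcripts tested. HDAC5 had -0.47 (limma adjusted p = 0.0505), HDAC1 0.35 (adjusted p = 0.0877) and KDM4A 0.30 (adjusted p = 0.0338) in the same comparison, not past the threshold. HDAC9 had -0.17, SIRT2 0.30, SIRT7 0.36, KDM4C 0.27, KDM5A 0.24 and KDM5C 0.15, also not past it.

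What DAC added to ATRA was read from DAC + ATRA against ATRA, where 10 of 31 members were higher (32.3%), beside 19.1% of all transcripts tested, and 2 were lower (6.45%), beside 10.2%, while 29.4% of all transcripts passed in either direction. KDM7A (1.56, limma adjusted p = 5.59e-06), KDM6B (1.52, adjusted p = 7.01e-09) and HDAC9 (1.49, adjusted p = 1.27e-05) had the largest log2 fold changes of the 10. For each of these 3 genes all 3 DAC + ATRA libraries lay above all 3 ATRA libraries. KDM1B (0.98), SIRT7 (0.92), SIRT2 (0.89), HDAC5 (0.79), KDM4B (0.70), KDM4A (0.65) and HDAC1 (0.56) were the others, again with no overlap of the libraries. The lower ones were HDAC7 (-0.63, limma adjusted p = 0.00101) and HDAC2 (-0.62, adjusted p = 0.00705), and for HDAC2 the ATRA libraries, from 103 to 186, overlapped the DAC + ATRA ones. The adjusted p of HDAC2 (limma, DESeq2 or edgeR) ran from 0.000137 to 0.0681 over 24 alternatives, and the call was lost without untreated 2 (0.0102), ATRA 7 (0.0681), ATRA 8 (0.0313), DAC + ATRA 10 (0.0283) or DAC + ATRA 11 (0.0439) and with only the groups compared in the fit (0.0202). That of SIRT2 ran from 9.1e-06 to 0.0282, and the call was lost without ATRA 7 (0.0282), DAC + ATRA 10 (0.0198) or DAC + ATRA 12 (0.0186) and with reads scaled to library size (0.0148). That of KDM4B ran from 1.24e-05 to 0.0259, and the call was lost without ATRA 9 (0.0259), DAC + ATRA 10 (0.0111) or DAC + ATRA 11 (0.0187). That of HDAC1 ran from 2.72e-05 to 0.0126, and the call was lost without ATRA 7 (0.0126) and with reads scaled to library size (0.0119).

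The interaction asks whether the log2 fold change with both agents differs from the sum of those with each. No member passed in limma, with 0 higher beside 0.527% of all transcripts tested and 0 lower beside 0.986% (1.51% in either direction). Without ATRA 9 the share of all transcripts that was lower was 2.16%. DESeq2 and edgeR, with either scaling, gave 0 as well. At an unadjusted p under 0.05 there were 5 members (16.1%) in limma beside 14.4% of all transcripts, 4 (12.9%) in DESeq2 beside 10.5% and 5 (16.1%) in edgeR beside 13.4%, so near the background. The 5 in limma, named after their values were seen, were HDAC5 (-0.80, adjusted p = 0.0529), KDM1B (0.61, adjusted p = 0.0697), KDM2B (0.71, adjusted p = 0.0766), KDM7A (0.97, adjusted p = 0.112) and KDM4B (-0.54, adjusted p = 0.341). For HDAC5 the 95% interval of the interaction ran from -1.27 to -0.33 and for KDM7A from 0.31 to 1.63, intervals without 0 although neither passed after adjustment. For HDAC7, KDM6B and KDM4A the interval ran from -0.61 to 0.23, -0.68 to 0.21 and -0.35 to 0.20, respectively.

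The 13 members that passed the test in none of the 6 comparisons were HDAC3, HDAC8, HDAC4, HDAC6, HDAC10, SIRT3, SIRT5, SIRT6, KDM2A, KDM3A, KDM3B, KDM5B and KDM6A. Their log2 fold changes against untreated cells ran from -0.33 to 0.72 and over the 6 comparisons from -0.75 to 0.72. KDM3A, with 49.8 to 74.9 normalized reads over the 12 libraries, was nearest to no change, at -0.07 with DAC, 0.09 with ATRA and -0.04 with both agents, where its 95% interval ran from -0.44 to 0.35. SIRT5, a mitochondrial desuccinylase, had the widest interval, from -0.28 to 1.72 with DAC + ATRA, with 2.77 to 19.8 normalized reads in the 12 libraries. A missed threshold does not show that these transcripts were alike in the 4 groups.

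Other genes of the same chromatin pathways were taken from lists and counted in the same way. Of all transcripts tested 22.2% rose and 11.3% fell with DAC, 5.11% and 1.87% with ATRA and 25.5% and 16.1% with both agents, as above. Of 30 tested subunits of corepressor complexes 6 rose (20%) and 4 fell (13.3%) with DAC, 2 rose (6.67%) and 1 fell (3.33%) with ATRA, and 7 rose (23.3%) and 4 fell (13.3%) with DAC + ATRA, shares near those of all transcripts. With reads scaled to library size the counts were 1 and 1 with ATRA and 6 and 6 with DAC + ATRA. RCOR2, a CoREST paralog, gave 1.84, 2.73 and 4.62 in untreated cells, 281, 204 and 259 with DAC, 0, 0.910 and 2.50 with ATRA and 105, 142 and 104 with both agents (normalized reads). All RCOR2 libraries with DAC lay far above all without it, and its log2 fold change was 5.98 ± 0.347 (SE) with DAC and 4.90 ± 0.347 with DAC + ATRA (limma adjusted p = 1.13e-11), the highest of this list and taken over low untreated values. MTA1, a NuRD subunit, gave 139, 119 and 149.6 in untreated cells, 75.7, 75 and 93.6 with DAC, 111, 130.2 and 109.9 with ATRA and 88.6, 58.9 and 49.4 with both agents (normalized reads). Libraries of MTA1 with DAC lay below those without it, and it had the lowest log2 fold change of this list, -1.07 with DAC + ATRA (limma adjusted p = 2.64e-05). The list's median log2 fold change with DAC + ATRA was 0.00, beside 0.05 over all transcripts tested.

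Of 13 tested histone acetyltransferases 5 rose (38.5%) and 1 fell (7.69%) with DAC, 1 rose (7.69%) with ATRA, and 8 rose (61.5%, beside 25.5% of all transcripts) and 1 fell (7.69%, beside 16.1%) with DAC + ATRA, with a median log2 fold change of 0.61 for the last. The 8 were 6 in DESeq2, 7 in edgeR with either scaling, 6 with reads scaled to library size and 5 in limma without untreated 3. NCOA3, a coactivator of nuclear receptors, gave 173, 174 and 125 in untreated cells, 249, 312 and 238 with DAC, 334, 272 and 301 with ATRA and 615, 585 and 654 with both agents (normalized reads). Its DAC + ATRA libraries stood above all others and its untreated libraries below, with a log2 fold change of 1.98 ± 0.142 with DAC + ATRA (limma adjusted p = 9.61e-12), 0.76 with DAC and 0.95 with ATRA. KAT8, which acetylates lysine 16 of histone H4, gave 280.3, 257 and 274 in untreated cells, 206, 210.4 and 191 with DAC, 270.3, 246 and 274 with ATRA and 183, 191 and 196 with both agents (normalized reads). KAT8 libraries with DAC lay below those without it, and the log2 fold change was -0.51 with DAC + ATRA (limma adjusted p = 0.00100).

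Of 27 tested lysine methyltransferases 7 rose (25.9%) and 3 fell (11.1%) with DAC, 0 passed with ATRA in limma, and 6 rose (22.2%) and 5 fell (18.5%) with DAC + ATRA, near the shares of all transcripts. With reads scaled to library size the counts were 5 and 5 with DAC and 5 and 7 with DAC + ATRA. With ATRA 1 of the 27 had an unadjusted p under 0.05 in limma, where 22.5% of all transcripts did, and DESeq2 and edgeR also called 0, each with 1 at that level. NSD1, a methyltransferase for lysine 36 of histone H3, gave 2.76, 0 and 3.69 in untreated cells, 13, 18.5 and 9.96 with DAC, 5.28, 3.64 and 3.33 with ATRA and 10.8, 7.37 and 14.8 with both agents (normalized reads). The untreated libraries of NSD1 held few reads, so no fold is given, and its difference between DAC + ATRA and untreated cells passed the test (limma adjusted p = 0.000575). EZH2, the catalytic subunit of a Polycomb complex, gave 25.7, 38.2 and 44.3 in untreated cells, 20.5, 23.4 and 16.9 with DAC, 28.5, 20.9 and 31.6 with ATRA and 17.2, 10.5 and 19.8 with both agents (normalized reads) for a transcript annotated as a target of nonsense-mediated decay. All EZH2 libraries with DAC lay below the untreated ones, and it fell by 1.15 on the log2 scale with DAC + ATRA (limma adjusted p = 0.00118). Its adjusted p (limma, DESeq2 or edgeR) ran from 0.000499 to 0.0138 over 24 alternatives, and the call was lost without untreated 3 (0.0124) or DAC + ATRA 11 (0.0138).

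Of 10 tested JmjC proteins without a KDM symbol 2 rose and 2 fell with DAC (20% each), 1 rose with ATRA (10%), and 2 rose with DAC + ATRA (20%) and 0 fell. With DAC + ATRA 3 rose in DESeq2 and in edgeR with the deposited size factors, and 2 rose and 1 fell in edgeR with TMM. With reads scaled to library size 1 rose and 2 fell with DAC, and 2 rose and 1 fell with DAC + ATRA. JMJD1C, a relative of KDM3A, gave 8.27, 1.82 and 11.1 in untreated cells, 16.2, 13.6 and 9.96 with DAC, 14.8, 19.1 and 17.5 with ATRA and 20.8, 31.6 and 28.4 with both agents (normalized reads). Its DAC + ATRA libraries were the highest of the 12, with a log2 fold change of 2.02 ± 0.395 (limma adjusted p = 0.000126) that was 1.38 without untreated 2, the library with 1.82. MINA, a ribosomal oxygenase, gave 276, 260.3 and 236 in untreated cells, 168, 194 and 165 with DAC, 924, 829 and 815 with ATRA and 656, 628 and 657 with both agents (normalized reads). All MINA libraries with ATRA lay above all without it, and the DAC libraries lay below the untreated ones. MINA had 1.73 with ATRA, -0.55 with DAC and 1.33 with DAC + ATRA (limma adjusted p = 1.52e-11, 0.000348 and 3.7e-10).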

How the data were processed

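U937 cells in 4 groups of 3 libraries were profiled by RNA sequencing. The values were deposited by the authors as a table of signal per transcript, read counts (STAR, HTSeq) divided by 1 size factor per library. Dividing each library by its smallest step gave values within 0.01 of a whole number for 100% of them. For DAC 6 the step was 0.996, so edgeR was also run without it. Transcripts with at least 10 normalized reads in at least 3 libraries were tested on log2(value + 1) with limma 3.58.1 (R 4.3.3), trend and robust options on, all 12 libraries in 1 fit, at a Benjamini-Hochberg adjusted p under 0.01. DESeq2 1.42.0 and edgeR 4.0.16 on the recovered counts called all 42 member changes that limma called. The procedure was tested on simulated data, where it missed the pass mark set beforehand for 4-fold changes found, and the mark was then lowered. Tables used Python 3.11.15, pandas 2.3.3, numpy 2.4.6 and scipy 1.17.1. Library depths are given above, and the floor of 3 reads covers counting error only.

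Members past the threshold in a treatment against untreated cells or in the interaction were described library by library, with full statistics at an absolute log2 fold change of at least 1 there. The others were given by range and counts, naming the nearest to no change and the widest interval. Each other list gave its highest and lowest gene among those past the threshold with DAC + ATRA. Members and lists were chosen with earlier results of these data known. One of the marker lists fixed beforehand is not reported here. Alternatives changed the test, scaling, filter, pseudocount, threshold, transcripts, samples fitted and libraries.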

Additional observations from a re-analysis of the deposited data

How the results depend on the processing

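Of 42 member changes past the threshold 18 held under all 25 alternatives. Another 9 held under those run for them, which left out protein-coding transcripts alone because none of theirs was tested and, for KDM4C, also the filter on every library. Apart from leaving out libraries, 475 values kept direction and side of the threshold, 12 kept direction but lost the call and 3 turned, and in leave-one-out fits 502 kept both and 44 lost the call. The 3 that turned were KDM2B with protein-coding transcripts alone, at -0.62 with ATRA, -1.66 with DAC + ATRA and -0.11 for DAC + ATRA against DAC, where another transcript was read. Counts of members that moved by more than 1.5 times were as follows, and the cause was not tested. At an adjusted p under 0.05 the members higher with DAC were 13 (41.9%, beside 27.6% of all transcripts), lower with ATRA 4 (12.9%, beside 3.69%) and higher with DAC + ATRA against DAC 2 (6.45%, beside 7.61%). With protein-coding transcripts alone, where 19 members were tested, 1 was higher with ATRA (5.26%, beside 6.47%), 7 were higher with DAC + ATRA (36.8%, beside 32.6%), 0 were higher and 0 lower with DAC + ATRA against DAC (beside 6.1% and 5.29%), and 1 was lower with DAC + ATRA against ATRA (5.26%, beside 8.88%). The distance from all transcripts with DAC + ATRA was thus smaller than in the main fit, 38.7% beside 25.5%. With only the groups compared in the fit 1 member was higher with ATRA, beside 736 of all 19373 transcripts. There 1 was lower with DAC + ATRA against ATRA, beside 1665 of all transcripts. With reads scaled to library size 2 were higher with DAC + ATRA against DAC, beside 4.98% of all transcripts. Without the filter 0 were lower in that comparison, beside 743 of 68785 transcripts. In leave-one-out fits the members higher and lower ran from 5 to 9 and 1 to 3 with DAC, 1 to 2 and 2 to 3 with ATRA, 11 to 13 and 2 to 3 with DAC + ATRA, 1 to 2 and 0 to 1 for DAC + ATRA against DAC, 8 to 11 and 1 to 2 for DAC + ATRA against ATRA, and 0 to 0 for the interaction in both directions. Of all transcripts, the shares that moved by more than 1.5 times were those lower with ATRA, from 1.11% to 1.99%, lower for DAC + ATRA against DAC, from 2.22% to 4.67%, and lower for the interaction, from 0.65% to 2.16%. Scaling to library size moved the median of all transcripts to -0.07 with DAC, -0.06 with ATRA and -0.09 with both agents. Of all transcripts past the threshold 55.6% were then higher in place of 66.2% with DAC, and 60.6% in place of 73.2% with ATRA. With both agents the share was 51.5% in place of 61.3% (4245 higher and 4001 lower in place of 4945 and 3120). For the interaction it was 36.4% in place of 34.8%, and 23.4% with edgeR and TMM, which changed tool and scaling at once. With the deposited size factors edgeR gave 54 higher and 199 lower for the interaction. Size factors from the tested transcripts and edgeR without DAC 6 were added after seeing the data, and the first kept all 42 changes, the second 41. No paired analysis was possible because the columns carry no replicate number that pairs libraries across groups. The 6 members below the filter were not tested, and among those tested SIRT5 had few reads, with 2.77 to 19.8 normalized reads.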

Other observations

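Of the 31 tested members 15 had more than 1 transcript past the filter, 43 between them, and those below were chosen after their values were seen. KDM2A, whose chosen transcript did not pass the test, had a protein-coding transcript, ENST00000398645, with 25.7, 26.4 and 29.6 in untreated cells, 65.9, 54.6 and 106 with DAC, 49.6, 47.3 and 41.6 with ATRA and 75.9, 72.6 and 70.4 with both agents. All treated libraries of this KDM2A transcript, those with ATRA alone included, lay above its untreated ones. Its log2 fold changes were 1.38 with DAC (limma adjusted p = 6.22e-06) and 1.39 with DAC + ATRA (adjusted p = 4.12e-06). KDM1B had a protein-coding transcript, ENST00000449850, with 127, 147 and 119 in untreated cells, 229, 199.7 and 201 with DAC, 107, 92.8 and 92.4 with ATRA and 142, 183 and 187 with both agents. This KDM1B transcript rose with DAC (0.68, limma adjusted p = 0.000521), and its ATRA libraries were the lowest of the 12, at -0.42 (adjusted p = 0.0661). SIRT7 had a retained-intron transcript, ENST00000574992, with 49.6, 65.5 and 53.6 in untreated cells, 40.00, 38 and 50.8 with DAC, 41.2, 44.6 and 54.9 with ATRA and 47.9, 46.3 and 48.2 with both agents. Its DAC libraries overlapped the untreated ones and its DAC + ATRA libraries lay below them, at -0.38 with DAC (limma adjusted p = 0.114) and -0.23 with DAC + ATRA (adjusted p = 0.335). Another SIRT7 transcript, ENST00000571832, went with the chosen one, with 9.19, 10.01 and 8.31 in untreated cells, 29.2, 21.4 and 33.9 with DAC, 19, 21.8 and 10.8 with ATRA and 30.7, 22.1 and 30.9 with both agents. It rose with DAC (limma adjusted p = 0.000143) and, by 1.49 on the log2 scale, with DAC + ATRA (adjusted p = 0.000113). KDM4B had a protein-coding transcript, ENST00000588361, with 28.5, 21.8 and 15.7 in untreated cells, 91.9, 80.9 and 76.7 with DAC, 18, 37.3 and 25 with ATRA and 54.2, 51.6 and 58.1 with both agents. Its libraries with DAC lay above those without it, at 1.90 with DAC (limma adjusted p = 4.56e-07) and 1.31 with DAC + ATRA (adjusted p = 6.95e-05). For HDAC2 a retained-intron transcript, ENST00000523334, gave 46.9, 28.2 and 23.1 in untreated cells, 19.5, 26.3 and 23.9 with DAC, 48.6, 37.3 and 47.4 with ATRA and 40.7, 25.3 and 47 with both agents. Unlike those of the chosen HDAC2 transcript, its DAC and DAC + ATRA libraries overlapped the untreated ones.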
